A study of Caenorhabditis elegans with 4 samples.

Results

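The proteasome subunit genes of *C. elegans* were taken as every row of the UMI count table whose name begins with pas-, pbs-, rpn- or rpt-. The rule found 33 of the 14463 genes in the table, 14 of the core particle (pas, pbs) and 19 of the cap (rpn, rpt), and these are all 33 genes with such names in the Ensembl annotation of WBcel235. The study sorted YFP-positive muscle cells from embryos at the 1.5-fold stage and sequenced the 3′ ends of their mRNAs with QuantSeq, in 2 libraries per genotype. Wild-type embryos were of strain MLC2232, carrying lucEx1207(myo-3p::YFP), and mutant embryos of strain MLC2277, carrying the same transgene with mir-1(luc108) I, a deletion of the mir-1 hairpin. Both genotypes thus share an extrachromosomal YFP transgene driven by the promoter of the muscle myosin gene myo-3. Unique molecular identifiers (UMIs) on the cDNAs let amplification copies be counted once, and counts taken at 3′ ends do not scale with transcript length. Levels are given as TMM-normalized CPM (counts scaled to a common library size), and all differences as mir-1(luc108) minus wild type. Beyond the comparison of genotypes, the core particle was set against the cap.

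The proteasome degrades proteins tagged with ubiquitin. Its core is a barrel of stacked rings, with α subunits (pas) on the outside gating the entrance and β subunits (pbs) inside, some of which carry the proteolytic sites. The cap sits on the end of the barrel. Its base holds a ring of ATPases (rpt) that unfold substrates and thread them into the core, with scaffold subunits and ubiquitin receptors, and its lid holds the enzyme that removes the ubiquitin chain. Each ring takes one copy of each of its subunits, and most of these proteins are essential for viability. In *C. elegans*, the transcription factor SKN-1A raises the expression of proteasome subunit genes when proteasome function is impaired. In muscle, the proteasome turns over myofibrillar proteins. The study counted more aggregates of a transgenic polyglutamine-YFP reporter in muscle of mir-1 mutant larvae, a later stage than the embryos sequenced here.

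The libraries held 245336 to 453341 UMI counts on 10169 to 11916 genes, and the wild-type library 1 was the shallowest. All 12 listed muscle markers, unc-54 and myo-3 among them, were detected in every library. Their summed level was 22342 and 20577 CPM in wild type and 16376 and 15026 CPM in mir-1(luc108), with all 12 fitted fold changes below 0 and 11 of 12 markers lower in both mutant libraries than in both wild-type libraries, against 19.1% of all genes tested. The summed level of 9 hypodermis markers lay between 3023 and 3225 CPM, and that of 10 neuron markers between 505 and 688 CPM. Of 6 neuron markers tested, 5 had a fitted fold change above 0 and 1 below. Among them, unc-119 was at 137 and 128 CPM in wild type and 241 and 194 CPM in mir-1(luc108). In the wild-type libraries 1 and 2, snt-1 was at 8.07 and 40.9 CPM and unc-64 at 48.4 and 43.3 CPM. The 10 intestine markers summed to 133 and 428 CPM in the wild-type libraries 1 and 2, and to 292 and 298 CPM in mir-1(luc108). Of these, asp-1 alone was at 24.2 and 221 CPM in the wild-type libraries 1 and 2. The germline markers summed to at most 110 CPM, mostly from cgh-1 at 55.3 to 77.5 CPM, while pgl-3, glh-2 and nos-2 each had a single count over the 4 libraries. The pharynx list, at 2605 to 3376 CPM, was mostly mlc-1, a myosin light chain that body-wall muscle also uses. Elsewhere in that list, tni-4 was at 48.4 and 159 CPM and tnc-2 at 24.2 and 86.6 CPM in the wild-type libraries 1 and 2. There ceh-22 went the other way, at 72.7 and 16.8 CPM. The part of the lower muscle marker level, or of these gaps between the wild-type libraries, in the proteasome values below was not tested. In sorted bulk cells a change in the mix of cells and a change in RNA per cell cannot be told apart.

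Proteasome transcripts were a small part of the muscle cell transcriptome, and their total did not separate the genotypes. They took 255, 518, 609 and 407 UMI counts in the wild-type libraries 1 and 2 and the mir-1(luc108) libraries 1 and 2. As a share of the library this was 0.104% (exact 95% binomial interval 0.0916 to 0.118) and 0.122% (0.112 to 0.133) in wild type, and 0.134% (0.124 to 0.145) and 0.119% (0.107 to 0.131) in mir-1(luc108). These intervals cover counting error only. The mutant library 2 lay below the wild-type library 2, so the genotypes overlapped. The summed level was 1138 ± 153 CPM (SD, n = 2) in wild type and 1255 ± 58.8 CPM (SD, n = 2) in mir-1(luc108), a ratio of 1.1 and a difference smaller than the spread between the wild-type libraries.

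**Figure D1:**
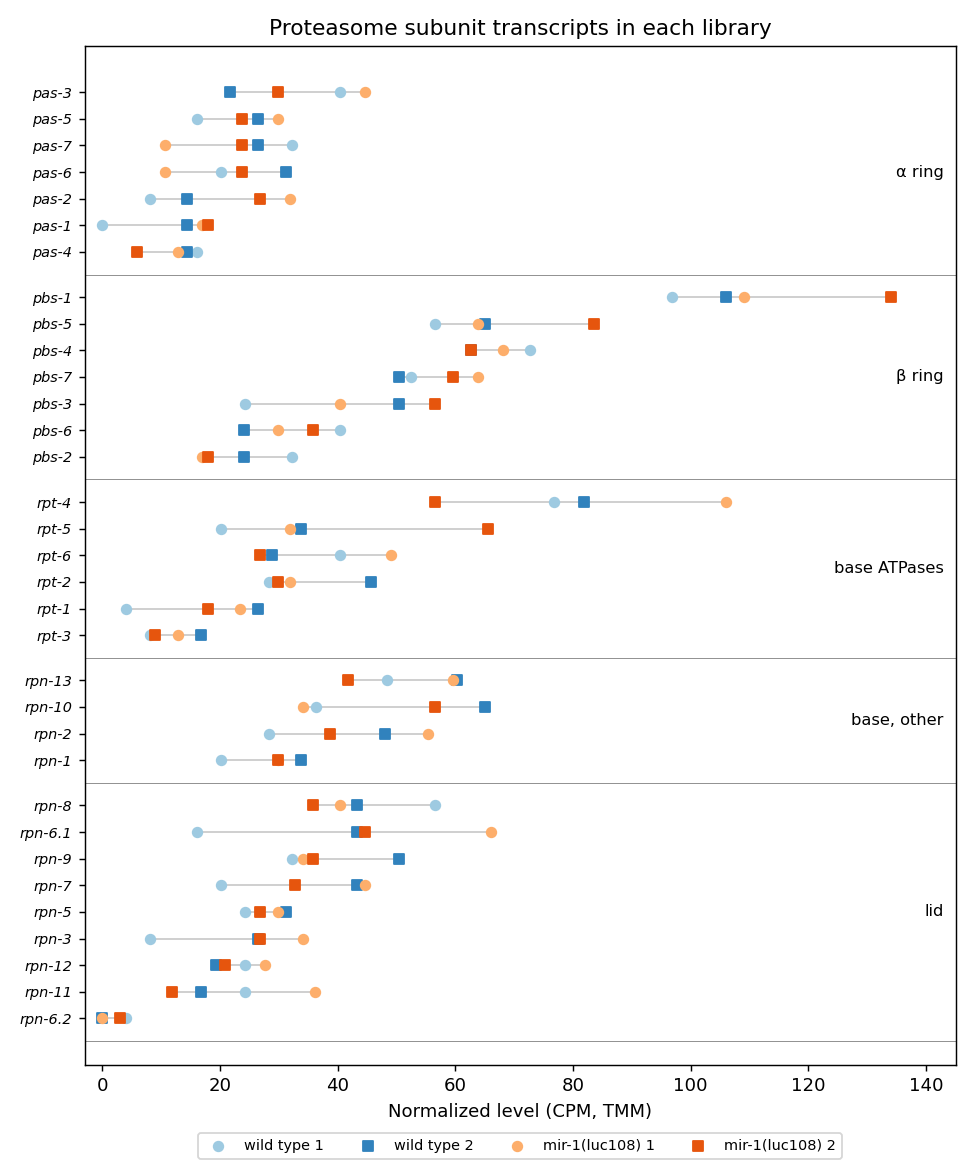
Normalized level in CPM (x axis, linear) of each of the 33 proteasome subunit genes (rows, grouped by ring or subcomplex) in each of the 4 libraries (points, blue for wild type and orange for mir-1(luc108), circles for library 1 and squares for library 2). The β subunit pbs-1 lies highest at a mean of 111 CPM, rpn-6.2 is close to 0, and in most rows the points of the genotypes are interleaved.

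Within this low level the subunits differed widely. The mean over 4 libraries was 111 CPM for pbs-1, 80.4 CPM for rpt-4, 67.2 CPM for pbs-5 and 66.5 CPM for pbs-4, and these 4 lay above the median of all genes tested, 61.8 CPM. The other 29 lay below it. The lowest members were rpt-3 at 11.7 CPM, pas-4 and pas-1 at 12.3 CPM each, and rpn-6.2 at 1.75 CPM. rpn-6.2 is a paralog of the lid subunit rpn-6.1 and had 1, 0, 0 and 1 UMI counts, at or under the limit that a count of 0 allows (3 counts, or 6.62 to 12.2 CPM by library), whereas rpn-6.1 was at 42.5 CPM. The order of the levels was similar in both genotypes, with a Spearman correlation of 0.845 between the wild-type and mutant means over the 33 genes, which share libraries and depth.

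The rings of the core were represented unequally, although both take their subunits in equal number. In the wild-type libraries the 7 β subunit genes summed to 375 and 383 CPM, against 133 and 149 CPM for the 7 α subunit genes. In mir-1(luc108) the β genes summed to 392 and 450 CPM and the α genes to 158 and 152 CPM. The β share of the core counts was 73.8% (exact 95% interval 65.2 to 81.2) and 71.9% (65.5 to 77.8) in wild type, and 71.3% (65.4 to 76.8) and 74.8% (68.2 to 80.6) in mir-1(luc108). It was at least 71.3% in every library, and the genotypes overlapped. The highest α gene, pas-3 at 34.1 CPM, lay below 5 of the 7 β genes. Priming and mapping efficiency can differ between 3′ ends and were not measured, so that levels of different genes compare tags and not protein. Another protein-coding gene overlaps pbs-3, pbs-4 and pbs-7 among the β genes and pas-7 among the α genes. The part of reads from these neighbours in the β share was not tested.

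**Figure D2:**
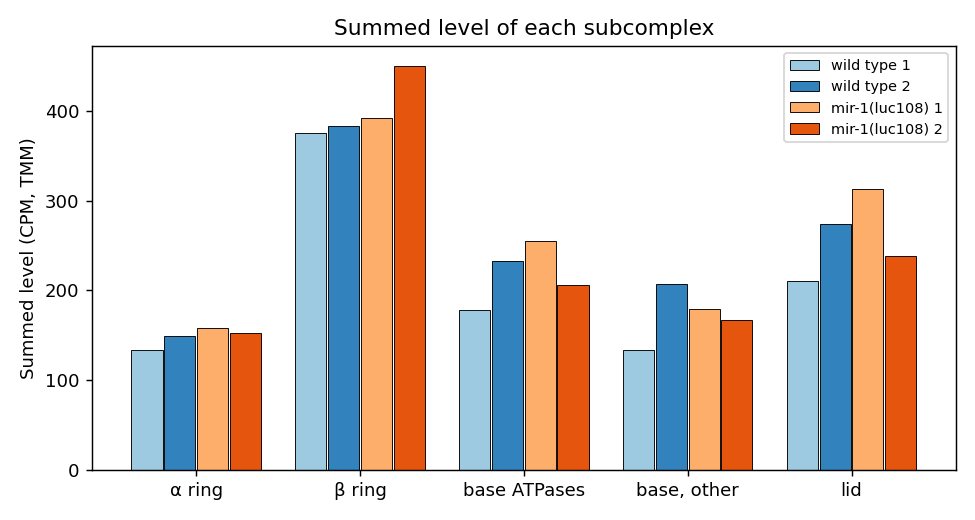
Summed level in CPM (y axis, from 0) of the α ring, the β ring, the ATPases of the base, the other base subunits and the lid, with 1 bar for each of the 4 libraries. The β bars stand between 375 and 450 CPM and the α bars between 133 and 158 CPM, and in the 3 cap groups the wild-type library 1 has the lowest bar.

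The summed levels of core and cap were set side by side in each library. The summed core level was 509 and 532 CPM in wild type and 549 and 602 CPM in mir-1(luc108), so both mutant libraries were above both wild-type libraries. The means, 520 ± 16.3 CPM and 576 ± 37.4 CPM (SD, n = 2 each), differed by a ratio of 1.11. The gap between the mutant libraries was close in size to the difference of these means. The nearest values, 532 and 549 CPM, rested on 221 and 258 UMI counts, and the counting error of the sums was not computed. The summed cap level was 521 and 715 CPM in wild type and 747 and 611 CPM in mir-1(luc108), and the genotypes overlapped. For the cap the gap between the wild-type libraries was wider than the difference of the means, 618 ± 137 CPM against 679 ± 96.2 CPM (SD, n = 2 each). Without the wild-type library 1 the cap lay lower in mir-1(luc108), with a log2 ratio of the summed levels of −0.074 in place of 0.137, and without the mir-1(luc108) library 1 the ratio was −0.016. With 2 libraries against 2, a permutation of the labels cannot give a two-sided p below 0.333.

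The core took 49.4% of the proteasome counts in the wild-type library 1 (exact 95% interval 43.1 to 55.7) and 42.7% (38.4 to 47.1) in the wild-type library 2. It took 42.4% (38.4 to 46.4) in the mir-1(luc108) library 1 and 49.6% (44.7 to 54.6) in the mir-1(luc108) library 2. Each genotype thus had a library with almost even shares and a library with more cap, with overlapping intervals, and the lower core shares were those of the 2 deepest libraries, with 424968 and 453341 UMI counts. The part of depth in this was not tested. Inside the cap, the ATPase genes took between 32.7 and 34.2% of the cap counts in each library and the lid genes between 38.4 and 41.9%, while the other base genes ran from 23.9 to 29% with overlapping intervals. The wild-type library 1 gave the lowest value of the 4 libraries for 17 of the 33 genes, 11 of them in the cap and 6 in the core. This library was also the shallowest, with 245336 UMI counts, and the same share over all genes was not computed.

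**Figure D3:**
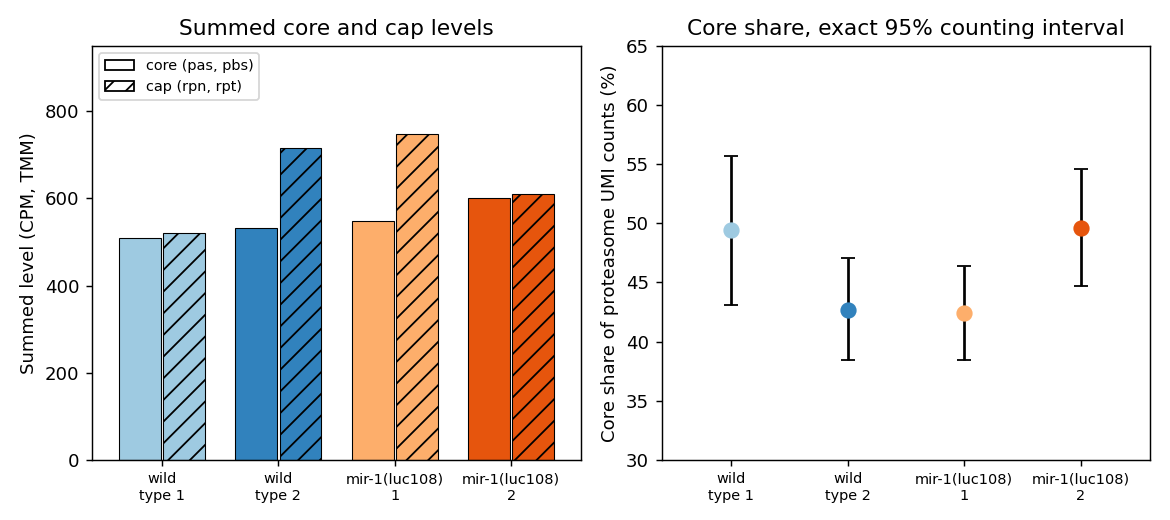
Left, summed level in CPM (y axis, from 0) of the core genes (plain bars) and cap genes (hatched bars) in each library. Right, the core share of the proteasome UMI counts in percent, with exact 95% binomial intervals as bars and an axis from 30 to 65%; the share is 49.4 and 49.6% in wild-type library 1 and mir-1(luc108) library 2, and 42.7 and 42.4% in the other libraries.

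No proteasome subunit gene passed the test between genotypes. The quasi-likelihood test of edgeR was run on the 5111 genes left by a filter on low counts, with Benjamini-Hochberg adjustment, and at an adjusted p of 0.05 it called 3 genes, or 0.0587% of those tested. Of the 33 members 22 were tested, 8 of the core and 14 of the cap, and 0 were called. At an unadjusted p of 0.05 there was 1 member, pas-2, against 8.2% of all genes tested. DESeq2 called 0 genes of the whole table, and 0 members had an unadjusted p below 0.05 in its test, against 0.698% of all genes. The smallest adjusted p of a member was 0.596. The fitted log2 fold change was above 0 for 16 of the 22 members (72.7%), against 50.3% of all genes tested, and its median was 0.22 against 0.003. Of the members above 0, pas-2 and rpn-3 met the count filter only through the mutant libraries. Over all 33 members, 22 were above 0 in edgeR with no filter and 21 in DESeq2. The share over all genes in those fits was not computed. For the 8 core members tested the median was 0.25, with 7 above 0, and for the 14 cap members tested it was 0.076, with 9 above 0. The filter left out 6 core genes. In DESeq2, pas-4, pas-6, pas-7 and pbs-2 of these lay at −0.68, −0.62, −0.79 and −0.68, and pas-1 and pas-5 at 1.16 and 0.31. The DESeq2 median was 0.257 over all 14 core genes and 0.122 over all 19 cap genes. Single libraries moved the edgeR medians. With the median kept to the same members, a choice made after seeing the data, and with pas-2 and rpn-3 missing where the mir-1(luc108) library 1 was left out, the value over all members was 0.057 without the wild-type library 1 and −0.029 without the mir-1(luc108) library 1. The core median was 0.079 without the mir-1(luc108) library 2, and the cap median was −0.13 without the wild-type library 1, −0.095 without the mir-1(luc108) library 1 and 0.255 without the wild-type library 2. The difference of the medians, core minus cap, was 0.17 on the log2 scale with all libraries, 0.37 and 0.024 without the wild-type libraries 1 and 2, and 0.297 and −0.07 without the mir-1(luc108) libraries 1 and 2.

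**Figure D4:**
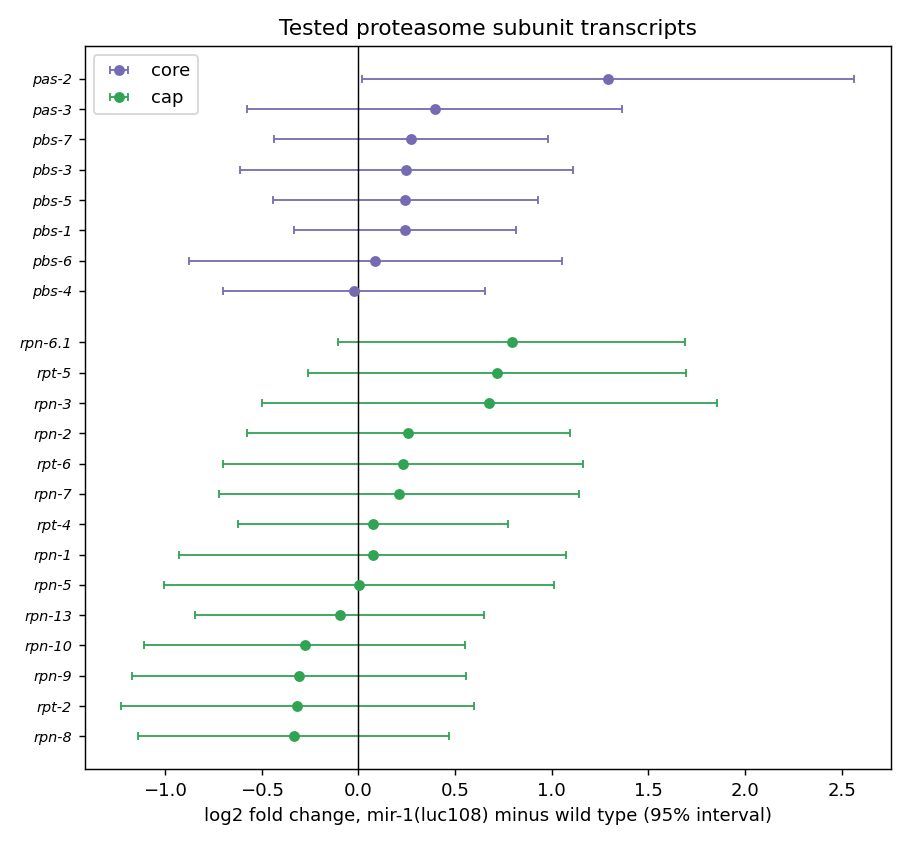
Log2 fold change, mir-1(luc108) minus wild type (x axis), of the 22 tested members (rows, 8 core in purple and 14 cap in green), with 95% intervals from edgeR's quasi-likelihood fit. All intervals but that of pas-2 include 0, and that of pas-2 runs from 0.018 to 2.56.

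The median standard error of a member's log2 fold change was 0.42, against 0.348 over all genes tested. For 6 of the 22 members the 95% interval excluded both a doubling and a halving. These were pbs-1, pbs-4, pbs-5, pbs-7, rpt-4 and rpn-13, the 6 most abundant members. For the others the interval did not exclude a change of that size in at least 1 direction. The genotypes did not overlap for 5 tested members in the higher direction and 1 in the lower direction, against 19.3 and 19.1% of all genes tested. Over all 33 members, the 11 untested ones included, the counts were 6 higher and 4 lower, against 15.2 and 13.8% of all genes in the table.

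Among the α subunits, pas-2 (WBGene00003923, chromosome V of WBcel235, 10770368 to 10771351) had wild-type UMI counts of 2 and 6 and mutant counts of 15 and 9, or 8.07 and 14.4 CPM against 31.9 and 26.8 CPM. Both mutant libraries were above both wild-type libraries. Its log2 fold change was 1.29 ± 0.607 (SE, edgeR adjusted p = 0.596), on 32 counts in all, and leaving out single libraries moved it between 1.03 and 1.83, except that without the mir-1(luc108) library 1 it had too few counts to be tested. pas-3 overlapped, at 40.4 and 21.7 CPM in wild type and 44.7 and 29.8 CPM in mir-1(luc108). The other α genes had too few counts to be tested. pas-1 had wild-type counts of 0 and 6 and mutant counts of 8 and 6, where the 0 allows a level of up to 12.2 CPM. pas-7 had wild-type counts of 8 and 11 and mutant counts of 5 and 8, and pas-4 had 4 and 6 against 6 and 2, so that after normalization both lay lower in each mutant library. The ratio of the pooled counts, after scaling by normalized library size, was 0.564 for pas-7 (exact 95% interval 0.256 to 1.2) and 0.659 for pas-4 (0.226 to 1.85). pas-5, with wild-type counts of 4 and 11 and mutant counts of 14 and 8, overlapped between genotypes, as did pas-6, with 5 and 13 against 5 and 8.

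The proteolytic β subunits, by their counterparts in other eukaryotes, are pbs-1 (caspase-like site), pbs-2 (trypsin-like site) and pbs-5 (chymotrypsin-like site). pbs-1 (WBGene00003947, chromosome IV, 1708814 to 1709745) was at 96.9 and 106 CPM in wild type and 109 and 134 CPM in mir-1(luc108), which did not overlap. Its log2 fold change was 0.24 ± 0.274 (SE, edgeR adjusted p = 0.903), with a 95% interval from −0.34 to 0.82, and it was 0.377 and 0.096 without the mir-1(luc108) libraries 1 and 2. pbs-5 (WBGene00003951, chromosome I, 14719167 to 14720477) was at 56.5 and 65 CPM in wild type and 63.9 and 83.5 CPM in mir-1(luc108). The groups overlapped, with a log2 fold change of 0.24 ± 0.327 (SE, edgeR adjusted p = 0.922), which was 0.42 and 0.062 without the mir-1(luc108) libraries 1 and 2. pbs-2 (WBGene00003948, chromosome I, 12967216 to 12968280) went the other way, with wild-type counts of 8 and 10 and mutant counts of 8 and 6, or 32.3 and 24.1 CPM against 17 and 17.9 CPM. It was not tested, and the ratio of its pooled counts after the same scaling was 0.641 (exact 95% interval 0.295 to 1.36). The 3 proteolytic subunits thus lay on both sides of the wild-type level. Of the structural β genes, pbs-7 was even between replicates, at 52.5 and 50.5 CPM in wild type and 63.9 and 59.6 CPM in mir-1(luc108). The difference of means of pbs-7 exceeded the gap between libraries in both genotypes, as did that of pas-2, and the adjusted p of pbs-7 was 0.91 from edgeR. The share of all genes tested for which this holds was not computed. pbs-4 had a log2 fold change of −0.021, and pbs-3 and pbs-6 overlapped between genotypes.

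The most abundant ATPase gene was rpt-4 (WBGene00004504, chromosome II, 42207 to 46216), at 76.7 and 81.8 CPM in wild type and 106 and 56.6 CPM in mir-1(luc108). The mutant libraries lay on either side of the wild-type ones, and the log2 fold change was 0.077 ± 0.333 (SE, edgeR adjusted p = 0.978). rpt-5 (WBGene00004505, chromosome I, 5741868 to 5743571) was at 20.2 and 33.7 CPM in wild type and 31.9 and 65.6 CPM in mir-1(luc108), with a log2 fold change of 0.72 ± 0.466 (SE, edgeR adjusted p = 0.77). It was 0.475 and 1.2 without the wild-type libraries 1 and 2, and 1.19 and 0.18 without the mir-1(luc108) libraries 1 and 2. rpt-2 was at 28.3 and 45.7 CPM in wild type and 31.9 and 29.8 CPM in mir-1(luc108), for a log2 fold change of −0.32 ± 0.435 (SE, edgeR adjusted p = 0.925). rpt-6 overlapped between genotypes. rpt-1, with wild-type counts of 1 and 11 and mutant counts of 11 and 6, and rpt-3, with 2 and 7 against 6 and 3, overlapped and were not tested.

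Of the remaining base subunits, rpn-1 and rpn-2 are the large scaffolds, and rpn-10 and rpn-13 bind ubiquitin chains. All 4 overlapped between genotypes. rpn-13 was at 48.4 and 60.2 CPM in wild type and 59.6 and 41.7 CPM in mir-1(luc108), and rpn-10 at 36.3 and 65 CPM against 34.1 and 56.6 CPM. The log2 fold changes of these 4 genes ran from −0.28 for rpn-10 to 0.26 for rpn-2.

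In the lid, rpn-6.1 (WBGene00004462, chromosome III, 6959110 to 6962001) encodes a scaffold that stabilizes the joint of lid and core, and raised levels of it increase proteasome activity in *C. elegans*. Its UMI counts were 4 and 18 for wild type, 31 and 15 for the mutant, or 16.1 and 43.3 CPM against 66 and 44.7 CPM. The groups parted narrowly, since the second wild-type and second mutant libraries differed little. Its log2 fold change was 0.79 ± 0.428 (SE, edgeR adjusted p = 0.693), and with single libraries left out it was 0.39 without the wild-type library 1, 1.79 without the wild-type library 2 and 0.445 without the mir-1(luc108) library 1. rpn-3, another scaffold, was at 8.07 and 26.5 CPM in wild type and 34.1 and 26.8 CPM in mir-1(luc108), with the same narrow parting. It was 0.227 and 1.89 on the log2 scale without the wild-type libraries 1 and 2, in place of 0.68, and could not be tested without the mir-1(luc108) library 1. rpn-8, the partner of the deubiquitinating enzyme, lay the other way, at 56.5 and 43.3 CPM in wild type and 40.4 and 35.8 CPM in mir-1(luc108). The fitted log2 fold change was −0.34 ± 0.383 (SE, edgeR adjusted p = 0.903), and −0.16 and −0.55 without the wild-type libraries 1 and 2. rpn-11, the deubiquitinating enzyme itself, had wild-type counts of 6 and 7 and mutant counts of 17 and 4, and was not tested. rpn-9 was at 32.3 and 50.5 CPM in wild type and 34.1 and 35.8 CPM in mir-1(luc108), for a log2 fold change of −0.31 ± 0.411 (SE, edgeR adjusted p = 0.922). rpn-5 and rpn-7 overlapped, as did rpn-12, which was not tested and had wild-type counts of 6 and 8 and mutant counts of 13 and 7.

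Other genes of the ubiquitin-proteasome pathway were taken from hand-written lists. Of 52 listed genes for proteasome assembly and control, ubiquitin transfer, shuttling and ligases, 49 were found in the table and 36 were tested. Of these, 0 passed the adjusted threshold in either direction, against 0.0587% of all genes tested. At an unadjusted p below 0.05 from edgeR there were 0, against 8.2% of all genes tested. The log2 fold change was above 0 for 20 of the 36, against 50.3% of all genes tested, and its median was 0.03 against 0.003. skn-1, the gene that encodes SKN-1A, was at 64.6 and 62.6 CPM in wild type and 80.9 and 74.5 CPM in mir-1(luc108), for a log2 fold change of 0.3 (adjusted p = 0.89 from edgeR). These counts are per gene, and do not give the level of SKN-1A itself. aip-1, an arsenite-inducible protein that associates with the proteasome, was at 32.3 and 28.9 CPM in wild type and 51.1 and 50.7 CPM in mir-1(luc108). Its replicates were close, but its log2 fold change of 0.75 had a standard error of 0.398 (adjusted p = 0.679 from edgeR). rad-23, a shuttle that brings ubiquitinated proteins to the proteasome, had a log2 fold change of 0.47 ± 0.296 (SE, edgeR adjusted p = 0.759). On the lower side, csn-2, a subunit of the COP9 signalosome, had a log2 fold change of −0.66 ± 0.366 (SE, edgeR adjusted p = 0.711), and eel-1, a HECT ubiquitin ligase, one of −0.48 ± 0.274 (SE, edgeR adjusted p = 0.721). The polyubiquitin gene ubq-1 was at 501 and 414 CPM in wild type and 392 and 349 CPM in mir-1(luc108), with a log2 fold change of −0.29 ± 0.204 (SE, edgeR adjusted p = 0.784). It was a less abundant transcript than ubq-2, which encodes ubiquitin fused to a ribosomal protein and stood between 2075 and 3094 CPM.

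Other large complexes were measured in the same libraries. The median log2 fold change was 0.247 over 17 tested vha genes of the V-ATPase, with 13 above 0, and 0.058 over 75 ribosomal protein genes, with 53 above 0. Over 7 tested cct genes of the cytosolic chaperonin it was −0.18, with 0 above 0. Of all genes tested, 50.3% were above 0. No member of these 3 families passed the adjusted threshold. At an unadjusted p below 0.05 from edgeR there were 5 vha genes, 4 higher and 1 lower. There were also 1 ribosomal gene, higher, and 1 cct gene, lower. Over all genes tested the share was 8.2% in either direction. The differences between complexes were not tested.

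The proteasome genes were spread over the genome, with 10 on chromosome I, 7 on II, 8 on III, 3 on IV and 5 on V. Their annotated 3′UTRs, the end that QuantSeq reads, were 90 to 662 bp long with a median of 180 bp. A protein-coding gene on the same strand ended or began less than 1000 bp upstream of 9 of the 33, as rpoa-12 does 106 bp upstream of pas-1 and mrpl-9 118 bp upstream of rpn-10. A protein-coding gene on the other strand overlapped 9 members, among them rpt-4, rpn-10, rpn-7, rpn-11, pbs-3 and pbs-4. The strand setting of the counting is not given in the sources used here, so counts of these 9 may hold reads of the partner gene. pbs-7 is overlapped by K07A12.5 on its own strand.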

How the data were processed

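The deposited values are UMI counts per gene. Per the methods of the paper, UMIs were extracted by the authors using UMI-tools, and reads were trimmed, mapped to WBcel235 with STAR, freed of duplicates by UMI and counted with HTSeq, without normalization. Versions and the annotation release are not given in the sources used here. Genotypes came from the sample titles. Gene identifiers and coordinates came from the Ensembl 115 annotation of WBcel235.

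Fold changes and p-values were computed with edgeR 4.0.16 in R 4.3.3 (quasi-likelihood fit, TMM factors of 0.977 to 1.04, filterByExpr with a minimum count of 10, library sizes summed over the genes kept). Intervals are 95% intervals from the standard error and the fit's degrees of freedom. CPM used the whole library total times the TMM factor. Alternatives were DESeq2 1.42.0 with and without its prior, other scaling, no filter, a replicate block and leaving out each library. The edgeR and DESeq2 code was tested on simulated counts. The 2 libraries of a genotype are called biological duplicates by the authors.

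The members and lists were chosen with earlier results of these data known, so no test over a list was made. Full statistics are given for the 3 members with the smallest p in each direction, the 3 most abundant, and pbs-1, pbs-2 and pbs-5. Values by library are given for these and for members whose genotypes do not overlap or that were not tested, and outside that rule for pas-3, rpn-10 and rpn-13. Of the other lists, the 2 smallest p in each direction and the 2 most abundant genes per list could be named. ubc-2, ecps-2 and csn-7 were not analysed here. ecps-1 was matched by its locus tag. No sequence was used.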

Additional observations from a re-analysis of the deposited data

How the results depend on the processing

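In each of 10 alternatives, 0 proteasome members and 0 genes of the pathway lists passed the adjusted threshold, and the smallest adjusted p of a member was 0.429 (rpn-6.1, without the wild-type library 2). The calls over all genes, 3 in the fit reported, were 63 with no filter, 0 with DESeq2 in both forms and 0 to 66 with single libraries left out, with 66 without the wild-type library 1, 15 without the mir-1(luc108) library 2 and 0 without either other library. The labels give no pairing beyond a number, and deviations of same-numbered libraries from their genotype mean had a correlation of −0.00266 over genes. With replicate number as a block the calls were 87, of which 0 were members, and rpt-4 was at −0.00315. The core median was 0.10 with DESeq2's prior. Leaving out a library also changes which members pass the filter (23 to 29 in place of 22), and with both changes the medians were −0.064 to 0.24 over all members, 0.049 to 0.24 for the core and −0.12 to 0.38 for the cap, with core minus cap from −0.33 to 0.25. Over the same 22 members (without pas-2 and rpn-3 where the mir-1(luc108) library 1 was left out), a choice made after seeing the data, they were −0.029 to 0.26, 0.079 to 0.28 and −0.13 to 0.255, with core minus cap from −0.07 to 0.37. The summed cap level, a log2 ratio of 0.137, was −0.074 to 0.38 when single libraries were left out, a setting chosen after seeing the data, and that of the core, 0.146, was 0.078 to 0.21. The sign held in all alternatives that tested them for 8 of the 22 tested members and turned in at least 1 for 14. pbs-4 was at 0.0052 with library totals alone and 0.0011 with no filter. With single libraries left out, log2 fold changes ran from −0.14 to 0.076 for pbs-4, −0.076 to 0.81 for pas-3, −0.079 to 0.97 for pbs-3, −0.31 to 0.43 for pbs-6, −0.17 to 0.56 for rpn-1, −0.064 to 0.76 for rpn-2, −0.13 to 0.23 for rpn-5, −0.12 to 0.96 for rpn-7, −0.53 to 0.11 for rpn-9, −0.63 to 0.28 for rpn-10, −0.42 to 0.11 for rpn-13, −0.55 to 0.14 for rpt-2, −0.51 to 0.42 for rpt-4 and −0.34 to 0.55 for rpt-6. The cause of these turns was not tested. A genotype left with 1 library takes its spread from the other genotype. With 18 to 164 UMI counts per member outside rpn-6.2, depth limits every value for a single subunit.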
